A study of Saccharomyces cerevisiae with 6 samples.

Results

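The data describe messenger RNA levels in budding yeast, Saccharomyces cerevisiae, in a strain whose working copy of TRA1 was the mutant allele tra1_SRR3413. This allele is named after a serine-arginine-arginine stretch of the PI3K domain of Tra1. The members are the 2 arrays, of 6 in the series, whose titles name this allele and wild-type TRA1. Each array carried RNA of the mutant strain, CY1531, beside RNA of the reference strain, CY1524, in the other dye. Both strains had the chromosomal copy of TRA1 disrupted (TRA1::Tn10LUK). Both depended on a myc-tagged gene on YCplac111, a centromeric plasmid marked with LEU2: myc-tra1_SRR3413 in the mutant and myc-TRA1_SB in the reference. Array 1 had the mutant RNA in Cy5, and array 2, the dye swap, had it in Cy3. The other 4 arrays of the series compared the alleles tra1-P3408A and tra1-S3463A with the same reference strain. They entered the main fit through the shared estimate of the spread and the filters that chose the genes tested. The series calls the arrays biological replicates. The labels used here give no culture condition, and do not say whether separate cultures of the reference were grown.

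Some labels conflict. On array 1 of tra1-S3463A the source text gives strain CY1531, the one with tra1_SRR3413, and the source text of the Cy5 channel on array 2 of tra1_SRR3413 opens with the other dye. The sample descriptions name tra1_P3408A throughout. Titles and label fields were followed. When array 1 of tra1-S3463A was counted as a further tra1_SRR3413 array, 966 genes rose in place of 571, a shift of over 1.5 times.

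Tra1 is a very large scaffold protein shared by SAGA and NuA4, both of which acetylate histones at promoters. Gene-specific activators contact Tra1 and so bring these complexes to DNA. Its C-terminal domain resembles that of the PI3K-related kinases but lacks the residues that a kinase needs. Activators known to work with SAGA in yeast include Gcn4 at amino acid genes and Pho4 at phosphate genes, and Bas1 with Pho2 turns on the purine genes.

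Each value below is a log2 ratio of tra1_SRR3413 over TRA1 for 1 gene, after background correction with normexp and within-array loess, so 0 means equal level and -1 means a 2-fold fall. Pairs of values are array 1 and then array 2. Means carry the SD of the 2 arrays. Spots of NDE1, QCR6 and RNR4 in the mutant and of GCV3, TSA1 and TDH3 in the reference were saturated on 1 of the 2 arrays, so their ratios may understate the difference. A gene is said to have risen or fallen where limma's moderated test, fitted over all 6 arrays and 6119 genes, gave an adjusted p under 0.05. Since ratios are centred on the bulk of genes, a change shared by all mRNAs would not be seen. In these bulk extracts, fewer cells of a kind and less RNA per cell cannot be told apart.

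In the mutant, 718 genes fell, which is 11.7% of those tested, and 571 rose, 9.33%, together 21.1%. All 1289 had 1 sign on both arrays. The falls were larger than the rises: 240 falls and 70 rises reached 2-fold, and 48 falls but 1 rise reached 4-fold. The median ratio was -0.80 among genes that fell and 0.67 among those that rose, and 159 falls and 199 rises were under 1.5-fold. Over all genes the arrays correlated with r = 0.687 (Pearson) and rho = 0.576 (Spearman), as a description across genes that are not independent, and 68.6% of genes had the same sign on both. The median SD between the arrays was 0.20. A fit with the array number, which marks the dye orientation, as a block gave 1535 falls (25.1%) and 1475 rises (24.1%), and held all 1289 genes. Counts from it are given as those of the block fit for each gene group in which either count moved by over 1.5 times. The shares of all genes in either fit are the background for each group count below. Without array 1 of tra1_SRR3413 the counts were 438 lower and 276 higher, and without its array 2 they were 246 and 85. Without one or the other array of tra1-P3408A, which leaves the same spread in either case, they were 451 and 266. All 288 genes named in the text that passed kept their sign in each of these fits. That was fixed in advance, since genes that passed had 1 sign on both arrays. Leaving out an array of another allele does not change the ratio. Of the 163 of them that changed at least 2-fold, 15 no longer passed without array 1 of tra1_SRR3413, 26 without its array 2 and 10 without one array of tra1-P3408A. Of the 125 that changed less, 67, 107 and 48 no longer passed.

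**Figure D1:**
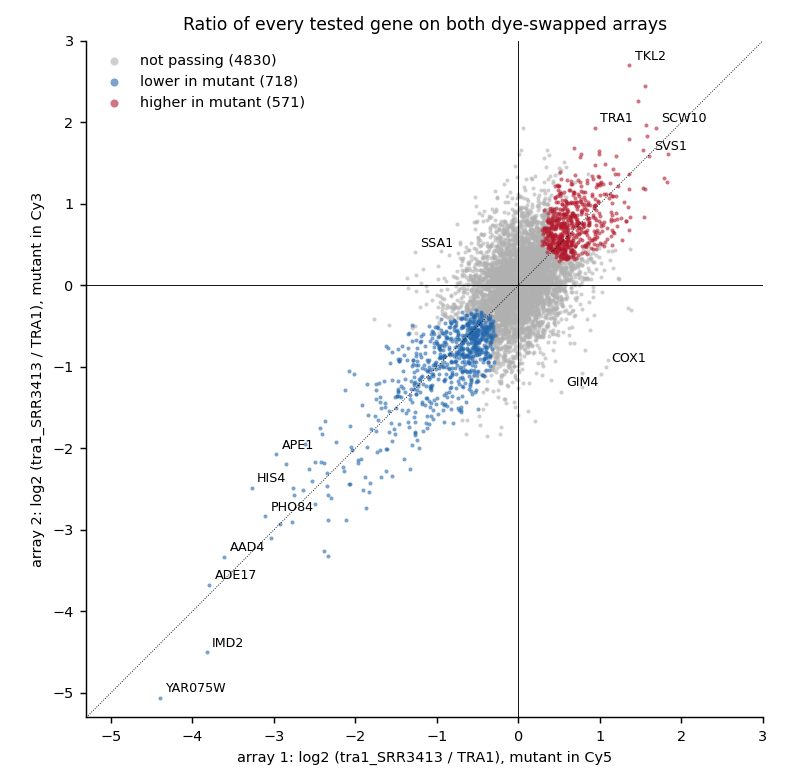
Each point is 1 of 6119 genes, with its log2 ratio of tra1_SRR3413 over TRA1 on array 1 (x axis) and on array 2 (y axis), and colour marks genes that passed. The falls reach past -4 along the dotted line of equal ratios, while the rises reach 1.36 and 2.70 at TKL2, and a few genes such as COX1 lie far off the line with opposite signs.

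TRA1 itself rose. Its ratio was 0.94 on array 1 and 1.93 on array 2, a mean of 1.44 ± 0.70 (SD, n = 2) or 2.71-fold higher (limma adjusted p = 0.0260). It did not pass without array 2 of tra1_SRR3413 (adjusted p = 0.158) or without one array of tra1-P3408A (adjusted p = 0.0642). No probe sequence was used here. Whether the signal comes from the plasmid gene alone or also from the disrupted chromosomal copy is therefore not known, and the ratio does not check the mutation. Markers used in building strains had smaller ratios. LEU2, on the plasmid of both strains, fell at -0.37 and -0.43 (adjusted p = 0.0483), a call lost in 10 of 17 alternative fits, and TRP1, of tryptophan synthesis, fell at -0.56 and -0.62 (adjusted p = 0.0149). URA3 stood at -0.01 and -0.24, and HIS3 at 0.05 and 0.14, and neither passed.

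Few genes that mark cell types passed. All 6 tested markers of alpha cells and all 7 of a cells gave signal well above background in both channels on both arrays, so signal alone did not show the mating type. MATALPHA1, which encodes an alpha-cell regulator, stood at 0.19 and 0.10, the pheromone gene MFALPHA1 at 0.48 and 0.47, and the receptor gene STE3 at 0.23 and 0.71. STE2, the a-cell receptor, stood at -0.40 and -0.05, and none of these passed. BAR1, the secreted protease of a cells that degrades alpha factor, was the 1 gene of the 13 in the mating type group that passed, and fell at -0.75 and -1.38 (adjusted p = 0.0391). The block fit put 2 of that group lower and 2 higher. The other 8 had means between -0.30 and 0.26. Among haploid and pheromone genes, 4 of 20 fell and 1 rose (6 lower and 3 higher in the block fit): RME1, a repressor of meiosis, fell at -1.65 and -1.18, and HO, the mating-type switching nuclease, rose at 1.21 and 0.73. FUS3, the pheromone kinase, fell less, at -0.49 and -0.43. Apart from fits that left out 1 array, its call was lost in 4 alternative fits. IME2, a kinase of early meiosis, rose at 0.66 and 0.88, and SPO1 of sporulation fell at -1.18 and -1.01, while 2 of 24 meiosis genes fell and 2 rose (9 lower and 4 higher in the block fit).

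The deepest falls were in guanine nucleotide synthesis. IMP dehydrogenase makes the first committed step from IMP to GTP, and IMD2 is known to be shut when GTP is ample. IMD2 (YHR216W) had ratios of -3.82 and -4.50, a mean of -4.16 ± 0.48 (SD, n = 2) or 17.9-fold lower (adjusted p = 0.000980). YAR075W, an annotated fragment of an IMD gene, had -4.40 and -5.06, the largest fall on the arrays. The related IMD1, IMD3 and IMD4 stood at -2.86 and -2.19, -2.07 and -2.44, and -1.18 and -1.44. These copies are near-identical, so how much of each value comes from another copy is uncertain. GUK1, guanylate kinase, fell at -0.50 and -1.05 (adjusted p = 0.0244), whereas GUA1, GMP synthase, stood at 0.10 and 0.24 and did not pass. Of the 6 genes listed for this step, which leave out IMD1, 5 fell and none rose, against 11.7% and 9.33% of all genes.

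The pathway that supplies IMP fell with them, at 9 of 15 tested genes and none higher (12 lower and 1 higher in the block fit), with a group median of -1.07 against -0.01 for all genes. ADE17 (YMR120C), of the last step, was at -3.80 and -3.67, or 13.3-fold lower (adjusted p = 0.000519). ADE1 stood at -3.04 and -3.10 and ADE57, the file's gene for a bifunctional enzyme, at -2.50 and -2.69. Both arrays thus gave nearly the same value for these genes. ADE13, ADE8 and ADE4 had means of -1.60, -1.57 and -1.07, and ADE2 fell at -1.33 and -2.26. ADE12, which starts the branch to AMP, fell at -1.47 and -0.93. ADE16, the paralogue of ADE17, stood at 0.05 and 0.69 and did not pass (adjusted p = 0.274). Of the genes for phosphoribosyl pyrophosphate, the shared precursor, PRS3 fell at -0.46 and -0.51 and the other 4 did not pass.

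Genes for glycine-derived one-carbon units, which feed purine synthesis, split between a few deep falls and the rest. SHM2, cytosolic serine hydroxymethyltransferase, was at -2.42 and -2.17, and all 3 specific subunits of the glycine cleavage system fell, with GCV2 at -2.57 and -2.26, GCV1 at -1.97 and -2.18 and GCV3 at -1.69 and -2.35. MTD1, a folate dehydrogenase, fell at -1.55 and -2.34. The other 12 of 17 genes did not pass, and 5 of these were called higher in the array-number block fit. SER1 and SER2, of serine synthesis, had means of -1.63 ± 0.08 and -0.94 ± 0.09, and SRY1, which breaks down hydroxyaspartate, had -1.92 ± 0.08 (SD, n = 2 each). In pyrimidine synthesis 1 of 10 genes fell and 2 rose (4 lower and 2 higher in the block fit): URA10, the minor orotate phosphoribosyltransferase, fell at -0.79 and -0.54, and URA1, dihydroorotate dehydrogenase, rose at 1.32 and 0.79.

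**Figure D2:**
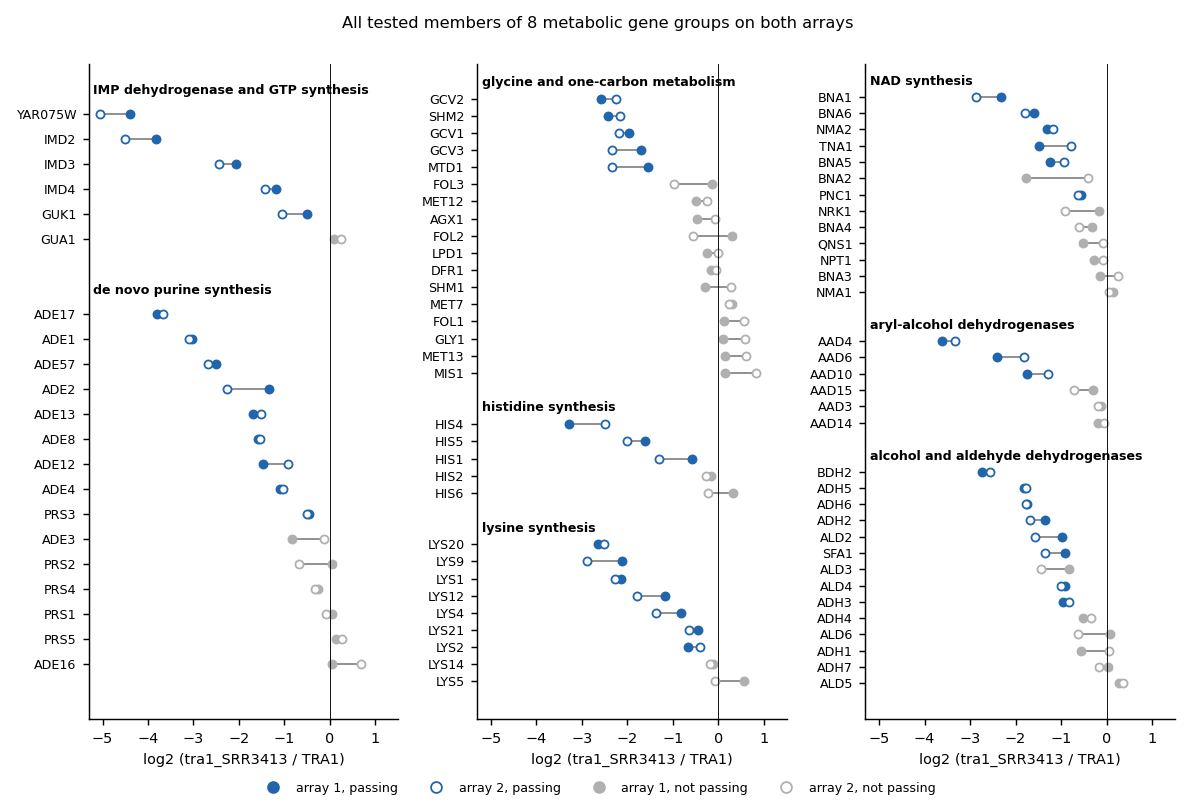
Each row is a gene, with its log2 ratio of tra1_SRR3413 over TRA1 on array 1 (filled) and array 2 (open), joined by a line, and colour marks genes that passed. In each group a run of genes lies far to the left on both arrays, from YAR075W at -4.40 and -5.06 down, beside others such as GUA1 (0.10 and 0.24) and ADE16 (0.05 and 0.69) at or above 0.

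Amino acid synthesis fell by branch and not as a whole. Lysine synthesis was the most complete, with 7 of 9 genes lower and none higher. LYS20, homocitrate synthase, stood at -2.64 and -2.52, LYS9 at -2.11 and -2.88 and LYS1 at -2.14 and -2.27, with adjusted p between 0.000695 and 0.00226. LYS12 and LYS4 followed at means of -1.48 and -1.09, and LYS21, the second homocitrate synthase, fell less, at -0.45 and -0.65. LYS14, the pathway's activator, stood at -0.12 and -0.17 and did not pass. For histidine, HIS4 was at -3.27 and -2.48, or 7.35-fold lower, HIS5 at -1.62 and -2.01 and HIS1 at -0.58 and -1.30, while HIS2 did not pass, so 3 of 5 genes fell. In the branched-chain group 4 of 12 fell (6 lower and 1 higher in the block fit), among them LEU1, isopropylmalate isomerase, at -2.07 and -1.73 and BAT2, the cytosolic transaminase, at -1.25 and -0.83. TRP2, TRP5 and TRP4 fell by means of -0.84, -0.70 and -0.44, 3 of the 10 aromatic genes, and ARO9, a transaminase of aromatic breakdown, was at -0.84 and -1.13.

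The arginine and sulfur groups held a few falls and a few rises. ARG4 and ARG1, the last synthetic steps of arginine, fell at -1.05 and -1.11 and at -1.20 and -0.88, while ARG8, an earlier step, rose at 0.37 and 0.47 and CAR1, arginase, at 0.51 and 0.45. HOM2 and HOM3, which lead to threonine and methionine, fell at means of -1.01 and -0.75, and MET16 fell at -0.53 and -0.70. Both subunits of sulfite reductase rose instead, MET5 at 0.72 and 0.73 and MET10 at 0.65 and 1.24, and SSU1, the sulfite exporter, fell at -1.37 and -0.92. In counts, 2 of 12 arginine genes fell and 2 rose, and 3 of 26 methionine and sulfate genes fell and 2 rose, against 11.7% and 9.33% of all genes. In the array-number block fit these became 5 and 4, and 6 and 8.

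Among cofactor genes, the vitamin B6 genes SNZ1 and SNO1, adjacent on the chromosome, stood at -2.39 and -2.18 and at -1.93 and -2.13 (adjusted p = 0.000695 and 0.000980). Their relatives SNZ2, SNO2, SNZ3 and SNO3 had means between -0.87 and -0.71, and as near-identical copies they may share signal. Thiamine uptake went the other way, with THI7, the thiamine transporter, at 0.95 and 1.21 and THI22 at 0.56 and 0.44. Of 13 genes of NAD synthesis, 6 fell and none rose, and 10 fell in the array-number block fit. BNA1 was at -2.33 and -2.88, or 6.09-fold lower, BNA6 at -1.59 and -1.80, BNA5 at -1.25 and -0.93, the adenylyltransferase NMA2 at -1.32 and -1.18 and the nicotinic acid permease TNA1 at -1.48 and -0.79. BNA2, the first step from tryptophan, stood at -1.77 and -0.41 and did not pass (adjusted p = 0.0919), but passed without array 2 (adjusted p = 0.0358). SPE3, spermidine synthase, fell at -1.35 and -1.53. In nitrogen uptake 5 of 28 genes fell and none rose, including GDH2, NAD-dependent glutamate dehydrogenase, at -0.96 and -0.99, the general amino acid permease GAP1 at -0.69 and -0.68 and the acidic amino acid permease DIP5 at -0.71 and -1.13. In the array-number block fit that group held 12 falls and 7 rises.

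Phosphate genes divided by role. Of the 20 genes of the Pho4 regulon, 10 fell and 1 rose. Among transporters, PHO84, of high affinity, stood at -3.11 and -2.83 and PHO89, which uses sodium, at -0.75 and -0.74, and GIT1, of glycerophosphoinositol, fell at -1.07 and -1.27. SPL2, which lowers low-affinity uptake, was at -2.92 on both arrays, and at a mean of -3.51 from Agilent's processed signals. Of the secreted acid phosphatases, PHO5 was at -2.62 and -1.95 and PHO11 at -1.60 and -0.77, while PHO12, nearly identical to PHO11, stood at -1.12 and -0.07 and did not pass. The polyphosphate polymerase subunits VTC3 and VTC1 fell at means of -0.63 and -1.10, and VTC4, the catalytic subunit, stood at -0.89 and 0.06. PHM7 was the exception and rose at 0.84 and 1.29 (adjusted p = 0.0186). Of 9 tested regulators none fell and 2 rose (1 lower and 3 higher in the block fit). PHO4 stood at -0.30 and 0.29, PHO2 at 0.02 and 0.28, PHO80 at 0.22 and -0.06 and PHO81, the kinase inhibitor, at -0.39 and 0.11. KCS1, a kinase of inositol pyrophosphates, rose at 0.66 and 0.41, and SYG1 at 0.62 and 1.17.

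Antioxidant genes fell broadly, 15 of 30 with none higher (21 lower and 4 higher in the block fit) and a group median of -0.68. Among glutathione transferases, GTT2 stood at -2.78 and -2.90, or 7.17-fold lower, and GTT1 at -1.28 and -1.12. The glutaredoxin genes GRX2 and GRX5 fell at -1.30 and -1.96 and at -0.83 and -1.18, GLR1, glutathione reductase, at -0.85 and -1.02, and GPX2 at -1.40 and -2.13. TSA2, a cytosolic peroxiredoxin outside that list, was at -2.76 and -2.49, and its abundant paralogue TSA1 at -0.63 and -0.77. CCS1, the copper chaperone that loads superoxide dismutase, fell at -2.34 and -2.57, and SOD2, the mitochondrial dismutase, at -0.96 and -0.88. TRX2, thioredoxin, was saturated in the reference on both arrays, so its fall of -1.18 means at least 2.26-fold lower. FLR1, a drug exporter, and OYE3, an NADPH oxidoreductase, fell at means of -2.12 and -1.89. YAP1, which encodes their activator, stood at -0.05 and -0.06 and did not pass.

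Dehydrogenases of alcohols and aldehydes formed another low set, with 8 of 14 lower and none higher. BDH2, a relative of butanediol dehydrogenase, was at -2.75 and -2.57, ADH5 at -1.81 and -1.77 and ADH6, which uses NADPH, at -1.75 and -1.78. ADH2, the glucose-repressed enzyme that oxidises ethanol, fell at -1.35 and -1.68, and SFA1, which detoxifies formaldehyde, at -0.91 and -1.35. The main fermentation gene ADH1 was saturated in both strains on both arrays, so its ratio has no bound. Of 6 aryl-alcohol dehydrogenases 3 fell, with AAD4 at -3.61 and -3.33, or 11.1-fold lower, AAD6 at -2.41 and -1.82 and AAD10 at -1.75 and -1.28, while AAD3 and AAD14 did not pass. AAD3 had a mean of -0.15, but -1.16 in the authors' series table. The sequences of that family are close, and which copy a probe reads is uncertain. YNL134C, of the same broad class, was saturated in the reference on both arrays and was at least 3.04-fold lower. In the array's own annotation, 6 of 9 genes of aldehyde metabolism fell. ZTA1, a zeta-crystallin type quinone reductase, was at -2.53 and -2.40, ECM4, an omega-class glutathione transferase, at -2.34 and -2.31, and the lactate genes CYB2 and DLD3 at means of -1.40 and -1.36.

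**Figure D3:**
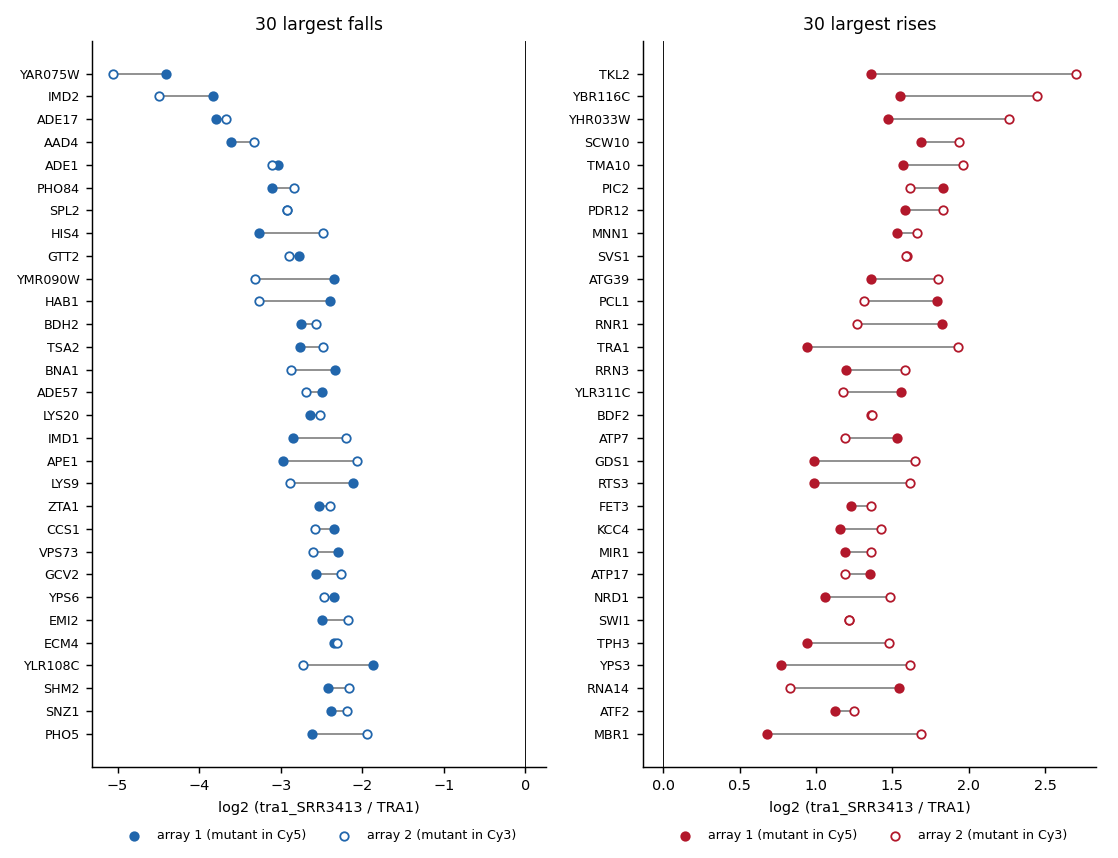
Rows are the 30 genes with the largest fall (left) and the 30 with the largest rise (right) among those that passed, with log2 ratios of tra1_SRR3413 over TRA1 on array 1 (filled) and array 2 (open). The falls start at YAR075W (-4.40 and -5.06) and end at PHO5 (-2.62 and -1.95), and the widest gap between arrays is at TKL2, 1.36 and 2.70.

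Several of the deepest falls have no assigned process on the array. YMR090W and HAB1, which are among them, stood at -2.34 and -3.32 and at -2.39 and -3.26. VPS73 was at -2.30 and -2.61, YPS6, an aspartyl protease gene next to GTT1, at -2.34 and -2.46, YLR108C at -1.87 and -2.73 and EMI2, a hexokinase-like gene, at -2.49 and -2.17. APE1, vacuolar aminopeptidase I, fell at -2.97 and -2.07, or 5.74-fold. ATG19, its receptor, fell at -1.14 and -0.84, and the neighbouring ATG34, a receptor of alpha-mannosidase, at -1.52 and -1.82. ATG8, the core autophagosome protein, was at -0.67 and -0.86, and ATG39, a receptor for autophagy of the nuclear envelope, rose at 1.36 and 1.80. In that group 6 of 27 genes fell and 2 rose (10 lower and 4 higher in the block fit), against 11.7% and 9.33% of all genes. Genes whose process on the array was unknown, not yet annotated or empty fell at 13.2% of 3237 and rose at 7.78%. Genes with a named process fell at 10.1% and rose at 11.1% of 2882. The first set holds well-known genes, among them IMD2, ADE1 and LYS20, so these shares do not compare uncharacterised with characterised genes.

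Protein folding and turnover genes were lower in part. Of 30 cytosolic chaperone genes 8 fell and 1 rose (13 lower and 3 higher in the block fit). The Hsp90 genes HSP82 and HSC82 stood at -1.46 and -0.90 and at -0.93 and -0.59, their co-chaperones CPR6 and SBA1 at -1.13 and -0.91 and at -0.69 and -1.05, and the Hsp110 gene SSE1 at -1.09 and -1.01. SSA4, the stress-induced Hsp70, was at -2.13 and -1.28, and CUR1, a sorting factor for misfolded proteins, rose at 0.47 and 0.41. The call of CUR1 was lost in 3 alternative fits, apart from those that left out 1 array. HSF1, which encodes the heat shock activator, stood at -0.06 and 0.69 and did not pass. Mitochondrial chaperones fell in 4 of 11 cases (6 lower and 1 higher in the block fit), such as HSP78 at -0.93 and -0.59. Genes of folding in the endoplasmic reticulum fell in 4 of 19 cases, such as CPR5 at -0.83 and -1.25, and none rose, while the block fit put 8 lower and 5 higher. Of 35 proteasome genes 9 fell and none rose, among them PRE10 at -0.93 and -1.52, PRE8 at -0.71 and -0.77 and PRE1 at -0.53 and -0.99, while 27 were below 0 on both arrays. In the array-number block fit 22 fell and 2 rose, the falls a larger share than the 25.1% of all genes that this fit put lower.

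Carbon storage and osmolyte genes were lower in a minority. GPP1, glycerol phosphatase, was at -1.63 and -1.49 and its stress-induced relative GPP2 at -1.19 and -0.62, and the water channel genes AQY1, AQY3 and AQY2 had means of -1.54, -1.13 and -0.52. In that osmotic group 7 of 17 fell and none rose (8 lower and 2 higher in the block fit). Of 18 trehalose and glycogen genes 4 fell (7 lower and 3 higher in the block fit), GLG1, the glycogen primer, at -0.76 and -0.84, PGM1 at -0.54 and -0.74, GSY1 at -1.34 and -0.58 and TPS3 at -1.03 and -0.51. Among Msn2 and Msn4 targets 5 of 28 fell and 2 rose, against 11.7% and 9.33% of all genes. SOL4 at -1.43 and -1.53 was the largest fall, while DDR2 rose at 0.45 and 1.08. MSN4 rose at 0.50 and 1.21, and MSN2 stood at -0.06 and 0.19. In the array-number block fit the stress group held 14 falls and 4 rises.

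Central carbon genes moved in both directions. HXK2, the main hexokinase on glucose, rose at 0.76 and 0.91 (adjusted p = 0.00804), the low-affinity transporter HXT1 at 0.47 and 0.61 and MIG2, a repressor of glucose-repressed genes, at 0.52 and 1.31. PYK2, the minor pyruvate kinase, fell at -2.02 and -1.09, TDH2 and TDH3 at -0.77 and -1.26 and at -0.54 and -1.10. In the 19 glycolytic genes these 3 fell and HXK2 rose (5 lower and 1 higher in the block fit). Outside that list, GPM2, a relative of phosphoglycerate mutase, fell at -1.26 and -1.84 and GCR1, the activator of glycolytic genes, at -1.22 and -1.15. In the pentose phosphate pathway TKL2, the minor transketolase, rose at 1.36 and 2.70, a mean of 2.03 ± 0.95 (SD, n = 2) or 4.09-fold higher (adjusted p = 0.0375), and GND1 rose at 0.56 and 0.83, while NQM1 fell at -1.17 and -0.60 and SOL3 at -0.29 and -0.61. Apart from fits that left out 1 array, the call of SOL3 was lost in 4 alternative fits and that of GND1 in 3. YBR116C, whose annotation overlaps TKL2, rose in parallel, at 1.55 and 2.45, and the 2 may share transcripts. Counting array 1 of tra1-S3463A with this allele, TKL2, YBR116C and MBR1 no longer passed, as was so of TKL2 and MBR1 without one array of tra1-P3408A and of all 3 without array 2 of tra1_SRR3413. In the glyoxylate group MDH2, cytosolic malate dehydrogenase, rose at 0.84 and 0.99, and CIT2, peroxisomal citrate synthase, fell at -1.76 and -1.61. Peroxisomal fatty acid genes fell in 7 of 22 cases (10 lower and 2 higher in the block fit), among them IDP3 at -1.24 and -1.21 and YAT2, a carnitine acetyltransferase, at -1.28 and -1.27.

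Mitochondrial groups differed in their counts. Of 39 genes of the respiratory chain and ATP synthase 20 rose and 2 fell (4 lower and 29 higher in the block fit), with a group median of 0.59. ATP synthase subunits led, with ATP7 at 1.53 and 1.19, ATP17 at 1.35 and 1.19 and ATP5 at 0.78 and 0.56. ATP2 was saturated in the mutant on both arrays and was at least 1.97-fold higher by the main normalization. Its ratio was as low as 0.70 in an alternative fit, and median centring lost its call. In complex III QCR6, COR1 and QCR7 stood at 0.94 and 0.98, 0.77 and 1.02, and 0.77 and 0.88, and in complex IV COX4 stood at 0.92 and 1.30. The 2 that fell have paralogues that rose: COX5B, used without oxygen, fell at -1.01 and -1.02 while COX5A rose at 0.59 and 0.69, and the external NADH dehydrogenase NDE2 fell at -1.86 and -1.21 while NDE1 rose at 1.16 and 1.09. In the citric acid cycle 5 of 19 genes fell and none rose, among them CIT3 at -1.30 and -0.91 and LSC2 at -1.21 and -0.69. Its main isoenzymes CIT1 and ACO1 stood at -0.25 and 0.21 and at 0.02 and 1.09. Among 28 carriers 5 rose and 5 fell (12 lower and 7 higher in the block fit). PIC2 and MIR1, which import phosphate into mitochondria, rose at 1.83 and 1.61 and at 1.19 and 1.36, PET9, the main ADP/ATP carrier, at 0.95 and 0.74 and AAC1 at 0.96 and 0.50. DIC1, of dicarboxylates, and OAC1, of oxaloacetate, fell at means of -1.03 and -1.08. Of 72 mitochondrial ribosomal protein genes 2 fell and 4 rose, below both background shares, and the block fit put 10 lower and 13 higher, below its own.

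**Figure D4:**
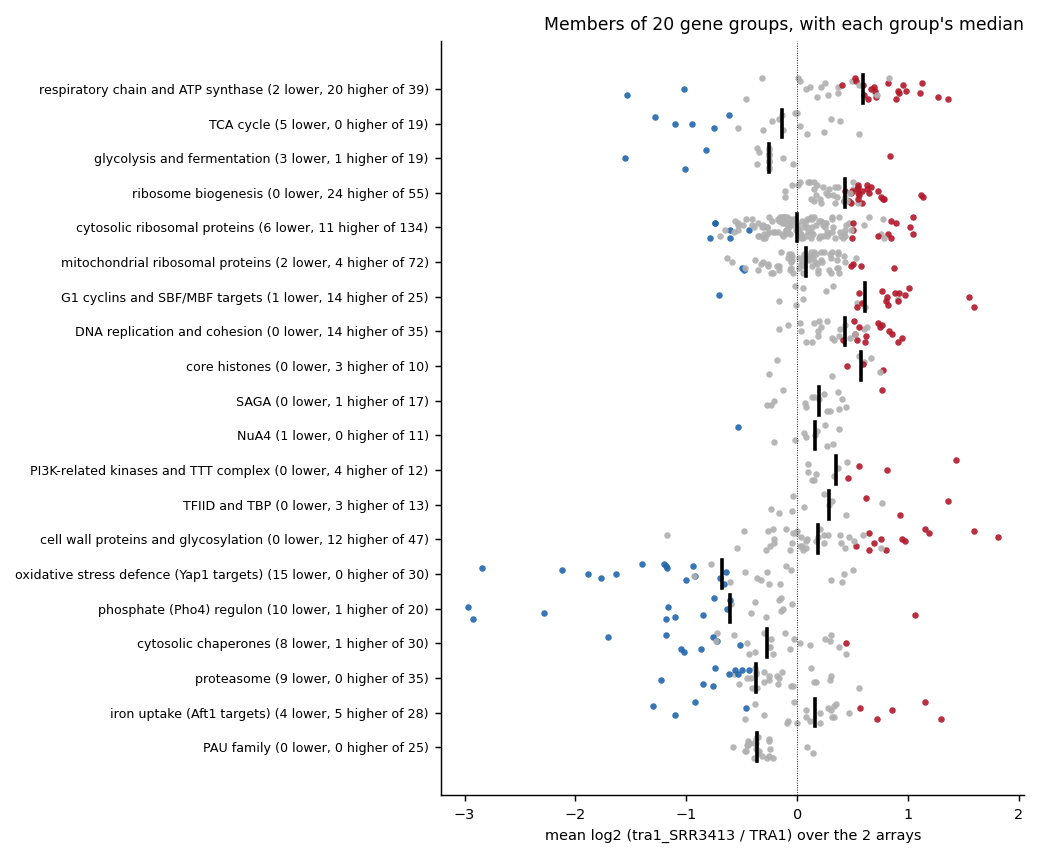
Each point is a gene's mean log2 ratio of tra1_SRR3413 over TRA1 over the 2 arrays, spread vertically within its group for legibility, coloured where it passed, and black bars are group medians. The respiratory chain (median 0.59), cell cycle and ribosome biogenesis groups lie to the right of 0, and the antioxidant (median -0.68), Pho4 and proteasome groups to the left.

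Ribosome biogenesis genes rose, while the level of the ribosomal protein genes was not settled by these arrays. Of 55 biogenesis genes 24 rose and none fell, 45 were above 0 on both arrays, and 40 rose in the array-number block fit. SDA1 stood at 1.01 and 1.27, the helicase genes DBP2 and DBP9 at 1.12 on both arrays and at 0.75 and 0.71, ERB1 at 0.68 and 0.86 and UTP4 at 0.66 and 0.87. RRN3, which recruits RNA polymerase I, rose at 1.20 and 1.58, or 2.62-fold, and its subunit RPA135 at 0.82 and 0.94. RPC82 and RPC53, of RNA polymerase III, rose at means of 0.89 and 0.62. For these polymerases 3 of 17 and 3 of 18 genes rose and none fell, against 9.33% and 11.7% of all genes. For RNA polymerase II none of 12 passed. The block fit put 6, 7 and 2 genes higher and 0, 2 and 1 lower for polymerases I, III and II. DOT6 and TOD6, which encode repressors of ribosome biogenesis genes, also rose, at means of 0.89 and 0.81. Of 134 ribosomal protein genes 11 rose and 6 fell (20 lower and 36 higher in the block fit). In the main fit that is 8.21% and 4.48%, below the 9.33% and 11.7% of all genes. The median of the ribosomal protein genes was 0.30 on array 1 and -0.28 on array 2, and 122 of the 134 were higher on array 1. These arrays thus do not settle their level relative to other genes. RPS14B rose at 0.84 and 1.26 and RPS8A fell at -0.59 and -0.89, and pairs of near-identical copies may share signal. Of the translation factors EFB1, an elongation factor subunit, fell at -1.01 and -0.94 and GCD2 rose at 0.42 and 0.58, 1 gene each of 36 (3 lower and 11 higher in the block fit).

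Genes of the G1 to S transition rose in 14 of 25 cases and fell in 1, with a group median of 0.61 on array 1 and 0.56 on array 2. The cyclin genes CLN1, CLN2 and CLB5 stood at 1.15 and 0.87, 1.15 and 0.68, and 1.27 and 0.55, and the cyclin PCL1 at 1.79 and 1.32. SVS1, a surface-related gene of this set, was at 1.60 and 1.59, and SWI4, a subunit of SBF, at 0.87 and 0.78. PCL9, which peaks earlier, in late mitosis, fell at -0.63 and -0.78. CLN3, the upstream cyclin, stood at 0.35 and 0.87 and did not pass, nor did SWI6 (-0.21 and 0.17) or MBP1 (0.07 and -0.40). In DNA replication and cohesion 14 of 35 rose and none fell (0 lower and 24 higher in the block fit), including SMC1 at 0.69 and 1.13, RFA3 at 0.81 and 0.66 and the ligase gene CDC9 at 0.61 and 0.91. RNR1, the large subunit of ribonucleotide reductase, rose at 1.83 and 1.27 and RNR4 at 0.91 and 0.86, and RAD9 at 0.55 and 0.77, while the photolyase gene PHR1 and the glycosylase gene MAG1 fell at -1.50 and -1.51 and at -0.68 and -1.24. In the mitotic group 4 of 27 rose and 1 fell (6 lower and 5 higher in the block fit). Outside these lists the bud neck kinases KCC4, GIN4 and HSL1 rose at means of 1.29, 1.11 and 0.82, the spindle pole body genes SPC97 and SPC98 at 0.83 and 0.85 and the cohesin loader gene SCC2 at 1.00.

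In Tra1's own complexes, both listed without TRA1 itself, which rose, 1 gene each passed, where 11.7% of all genes fell and 9.33% rose. Of 17 SAGA genes TAF12 rose, at 0.54 and 1.00 (adjusted p = 0.0225), and none fell (1 lower and 6 higher in the block fit). The acetyltransferase gene GCN5 stood at 0.20 and -0.05, ADA2 at -0.13 and -0.30, NGG1 at 0.06 and 0.10 and SPT20 at -0.16 and -0.09. SPT3 and SPT8, which contact the TATA-binding protein, stood at means of 0.37 and 0.27, SPT7 at 0.30 and HFI1 at 0.44, and the deubiquitinase genes UBP8, SGF11 and SGF73 at 0.16, 0.20 and 0.38. SGF29, TAF5, TAF6, TAF9 and TAF10 had means of -0.23, 0.13, 0.24, -0.27 and 0.40. In NuA4, EAF6 fell at -0.55 and -0.53 and was the 1 gene of 11 that passed (1 lower and 2 higher in the block fit). Its acetyltransferase gene ESA1 stood at 0.33 and 0.42 (adjusted p = 0.0506), EAF1 at 0.09 and 0.45 and YNG2 at 0.25 and -0.13. Among Tra1's relatives and their chaperones 4 of 12 rose (0 lower and 7 higher in the block fit): TTI1, of the complex that folds such proteins, at 0.87 and 0.75, MEC1 at 0.40 and 0.72, TOR2 at 0.53 and 0.39, and TRA1.

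General transcription genes rose singly. MOT1, which removes the TATA-binding protein from DNA, rose at 0.87 and 0.99, the bromodomain gene BDF2 at 1.36 on both arrays and TAF7 at 0.51 and 0.73, 3 of 13 in that group (0 lower and 7 higher in the block fit), while SPT15, for the TATA-binding protein itself, stood at -0.01 and -0.47. SWI1, of the SWI/SNF remodeller, was at 1.22 on both arrays, or 2.32-fold higher, and its neighbour HST2, a deacetylase, at 0.73 and 0.76. GAL11, SIN4 and RGR1, all of the Mediator tail or its scaffold, rose at means of 0.53, 0.48 and 0.66, 3 of 26 with none lower (5 lower and 10 higher in the block fit). That share of rises, 11.5%, is close to the 9.33% of all genes. Of the core histones and variants HHF1, HTB1 and HHT2 rose at means of 0.78, 0.59 and 0.45 and none fell (0 lower and 7 higher in the block fit). These calls depended on the processing. Apart from fits that left out 1 array, HHT2 lost its call in 5 alternatives, HTB1 in 4 and HHF1 in 1. Over all alternatives the ratio of HHT2 was as low as 0.19, that of HTB1 0.33 and that of HHF1 0.56. HTA1, HTA2, HHT1 and HHF2 stood between 0.55 and 0.75 without passing, HTB2 at 0.31, HTZ1 at -0.26 and HHO1 at -0.18. Histone copies are near-identical, and pairs may share signal. In RNA processing NRD1, of transcription termination, rose at 1.06 and 1.48, RNA14, of cleavage and polyadenylation, at 1.54 and 0.83 and MTR4, of the exosome, at 1.04 and 0.75. In the array's own annotation 53 of 247 genes placed in the nucleus rose and 18 fell (30 lower and 118 higher in the block fit), and 12 of 48 DNA repair genes rose and 3 fell (6 lower and 24 higher in the block fit).

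Surface and lipid genes changed member by member. Of 47 cell wall genes 12 rose and none fell (4 lower and 20 higher in the block fit). The array's own annotation drew this group otherwise: of 41 genes placed in the fungal cell wall, which include YPS6 and PHO5, 6 fell and 3 rose (9 lower and 11 higher in the block fit). SCW10, a glucanase family gene, stood at 1.69 and 1.93, or 3.51-fold higher (adjusted p = 0.00158), the mannosyltransferase gene MNN1 at 1.53 and 1.66, GSC2, a glucan synthase, at 0.80 and 1.14, and the chitin transglycosylase gene CRH1 at 0.86 and 0.74. PIR3 was saturated in the mutant on both arrays and was at least 2.23-fold higher by the main normalization. Its ratio was as low as 0.89 in an alternative fit, and median centring lost its call. The integrity pathway itself held 2 falls and 1 rise in 23 (5 lower and 5 higher in the block fit), with PRM5 at -1.33 and -1.34. Of 25 sterol genes 4 fell and 4 rose (10 lower and 5 higher in the block fit), against 11.7% and 9.33% of all genes, with ERG11 and ERG25 rising at 0.66 and 0.83 and at 0.66 and 0.51 and ERG28 and ERG26 falling at -1.12 and -1.61 and at -0.61 and -1.27. In the phosphatidylcholine pathway CHO2 rose at 0.81 and 0.77, and OPI3, the next step, and CHO1, an earlier one, fell at -1.14 and -1.47 and at -0.64 and -1.06.

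Metal transporter genes moved in both directions. FET3 and FTR1, the paired high-affinity iron oxidase and permease, rose at 1.23 and 1.36 and at 0.74 and 0.97, and their vacuolar counterpart FET5 at 0.64 and 0.80. SIT1, a siderophore transporter, rose at 0.99 and 1.33, while another, ENB1, fell at -1.26 and -1.33, as did the haem oxygenase gene HMX1 at -0.94 and -0.89, so 5 of 28 iron genes rose and 4 fell (6 lower and 11 higher in the block fit). Both plasma membrane zinc transporters fell, ZRT1 at -1.73 and -1.65 and ZRT2 at -1.25 and -1.34 (adjusted p = 0.00224 and 0.00158). Among drug transporters PDR12, which exports weak organic acids, rose at 1.58 and 1.83, or 3.27-fold, and the polyamine transporters TPO2 and TPO3 rose at means of 1.06 and 0.84, while AQR1 and SNQ2 fell at means of -0.80 and -0.59. In that group 4 of 25 fell and 4 rose (5 lower and 7 higher in the block fit), against 11.7% and 9.33% of all genes.

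Position on the chromosome bore a small difference. Among the 291 tested genes that are 1 of the first or last 10 named on their chromosome in the R64 gene order, 17.5% fell and 4.81% rose, against 12.0% and 10.1% of the 5322 others, as counts without a test. Of 5272 adjacent pairs of tested genes, 99 both fell, 50 both rose and 120 had 1 fall and 1 rise, as counts without a test. Over all genes 11.7% fell and 9.33% rose, so some pairs of either kind arise without any link between neighbours. The number to be expected was not worked out, and these counts do not show that neighbours changed together. Pairs that both fell include SNO1 with SNZ1, TSA2 with GUK1, ATG34 with ATG19 and GTT1 with YPS6. None of 25 PAU and related genes of chromosome ends passed, although 20 were below 0 on both arrays and 19 fell in the array-number block fit, with a median of -0.36. Of 8 YRF1 helicase genes none passed, although all 8 were above 0 on both arrays and 6 rose in the array-number block fit, with a median of 0.34. Copies of both families are near-identical.

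The 2 dye-swapped arrays disagreed on some groups. Over the 67 gene groups examined, the median of the members had the same sign on both arrays for 52 groups and opposite signs for 15. The clearest case besides the ribosomal protein genes was a group added after the values were seen, the 20 tested genes whose systematic names begin with Q, which are those of the mitochondrial genome. Their median was 0.53 on array 1 and -0.59 on array 2, 19 of the 20 were higher on array 1, and none passed. COX1, a core subunit of complex IV, stood at 1.07 and -1.01, ATP6 of the ATP synthase at 1.10 and -0.92, and VAR1, a ribosomal protein of mitochondria, at 0.78 and -1.24. The dye orientation and the slide changed together between these arrays. The cultures and RNA may have changed too, since the series calls the arrays biological replicates. The parts of these in this gap cannot be told apart.

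**Figure D5:**
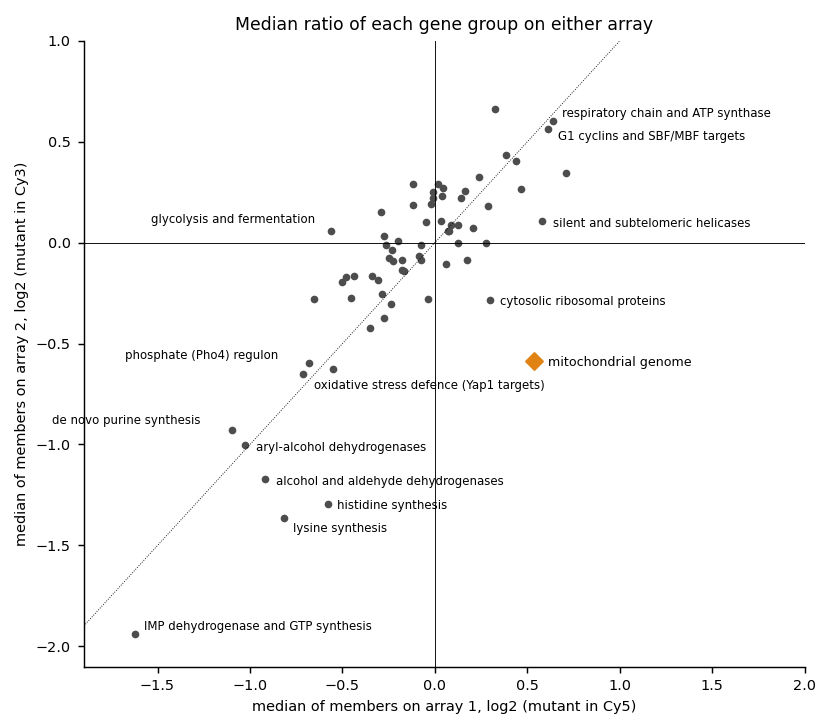
Each point is 1 of 67 gene groups, with the median log2 ratio of its members on array 1 (x axis) and on array 2 (y axis), and the diamond is the mitochondrial genome. Most points lie along the dotted line of equal medians, while the mitochondrial genome (0.53 and -0.59) and the cytosolic ribosomal proteins (0.30 and -0.28) lie where the signs are opposite.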

How the data were processed

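Total RNA extracted with silica matrices was amplified and dye-labelled by a company, as the labels' protocols say. Per the file headers, the spot intensity values were made with Agilent Feature Extraction 7.5.1. Mean and local background intensity are uncorrected, and processed intensity is background-subtracted and dye-normalized by lowess. The deposited log10 ratios are of processed Cy5 over Cy3, per the file headers. In the authors' deposited series table, the log10 ratio runs as mutant over reference (medians 0.00415 and 0.0101 on these arrays). The match of 100% of comparable spots within 1e-04 settled this scale and direction. Flags are deposited as 0 or 1.

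Mean and background signals were corrected by normexp (offset 50) and loess, with control spots at weight 0, in limma 3.58.1 (R 4.3.3, and data.table at version 1.17.8). The 544 control spots and outlier spots (0.653% and 0.370% of gene spots on the 2 arrays of this allele) were left out, each log2 ratio turned so that the mutant is the numerator, and replicate spots averaged. Median signal was 1434 in Cy3 and 2459 in Cy5 on array 1, and 2760 and 1908 on array 2. Both channels were well above background (2.6 SD) at 99.4% and 99.6% of the gene spots. Of 6256 genes, 2 were too dim (well above background on fewer than 2 arrays) and 135 lacked a value on some array. Symbols came from RefSeq's list of R64 genes, which held 5756 (92.0%) of the systematic names. No build of the probes' genome was given in the sources used here, so no positions are printed, and no sequences were used here.

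A two-sided test of each gene's ratio against 0 used lmFit and eBayes on the 6 arrays, with residual and prior degrees of freedom of 3 and 3.08, and Benjamini-Hochberg adjustment over 6119 genes. The reference RNA serves as 1 control sample, whose own spread is left out as far as the arrays share an extract, which the labels do not settle. The p-values measure only the spread between arrays. The small number of arrays limits the precision. In simulated data for this comparison, run over 6119 genes, the test recovered 56% of 50 genes changed by 1 on the log2 scale and 96% of 50 changed by 2. The simulated arrays varied independently and gave 141 calls, against 1289 in the data, so these rates may not hold for the data. The labels tie the array number to the dye orientation. Between pairs of alleles, same-numbered arrays deviated together. For tra1_SRR3413 r was 0.930 with tra1-S3463A and 0.512 with tra1-P3408A, and between those 2 alleles it was 0.467. The main fit treats the arrays as independent, so its 3 residual degrees of freedom may be overstated. A fit with the array number as a block is therefore given where it moves the count of a gene group or annotation term by over 1.5 times. A block takes shared deviations out of the spread, and its p-values may be too small. For genes saturated on both arrays, the bound is the bright channel's mean, saturated spots at their value, over the dim channel's. Each bound holds for the main normalization.

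The allele, the 67 gene groups and the rule for named genes were chosen with earlier results of these data known. The rule names the 30 largest falls and 30 largest rises that passed with 1 sign on both arrays, up to 6 members per group by unadjusted p, members against their group's direction, strain markers, members of the histone, mating type and SAGA groups, and genes farthest apart between the arrays. Other genes named, among them those outside the groups and activators or paralogues that did not pass, were chosen after their values were seen. Alternatives changed the normalization, signals, filters, blocks and arrays.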

Additional observations from a re-analysis of the deposited data

How the results depend on the processing

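Of the 17 alternatives, those that changed the scaling (median centring, Agilent processed signals, the authors' series table), the filters, the outlier spots or the variance model kept both counts within 1.5 times of the 718 lower and 571 higher genes. With the array number as a replicate block the counts were 1535 and 1475, and blocking on the slide gave 1598 and 1528. Counting array 1 of tra1-S3463A with this allele gave 966 higher genes. Leaving out 1 array at a time gave 246 to 679 lower and 85 to 530 higher genes, the lowest without array 2 of tra1_SRR3413. Where an allele is left with 1 array, that array is assumed to vary like the others. All 288 named genes that passed kept their direction in every alternative. This was fixed in advance for the fits that left out 1 array. It was also fixed for those that keep the same ratio, such as the array-number block, the intensity trend and the 2 arrays alone. Calls lost among them numbered 34 with median centring, 23 with the 2 arrays of this allele alone, 10 with the processed signals and 0 with either block. Of those changed at least 2-fold, median centring lost BAR1, NDE1, PDH1, PIR3, TPO2 and URA1. No group whose median exceeded 0.3 in size changed sign. The p-values rest on 2 arrays, and at an unadjusted p under 0.05 there were 2243 genes. Within a slide the allele has 1 array, given throughout. The promoter search and any test on sequences were not run, since no sequences were used here.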

Other observations

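Several genes, some of them outside the groups above, also changed, and were chosen after their values were seen. CIT3 was already counted in the citric acid cycle group. The 2-methylcitrate cycle breaks down propionate, and its 3 genes fell together: CIT3 at -1.30 and -0.91, its neighbour PDH1 at -1.55 and -0.82 and ICL2 at -1.24 and -1.29 on arrays 1 and 2. Other falls were RTC2 at -2.08 and -2.43, NRS1 at -1.97 and -2.15 (a mean of -3.14 from Agilent's processed signals), SHH3, a paralogue of a succinate dehydrogenase anchor gene, at -2.23 and -1.93, CIS1 at -1.53 and -1.76, and CEM1, of mitochondrial fatty acid synthesis, at -1.48 and -1.35. CMK1, a calmodulin-dependent kinase, fell at -1.09 and -1.14.

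Other genes outside the groups that rose were CYC8, of the Cyc8-Tup1 corepressor, at 0.66 and 0.88, PHD1, of filamentous growth, at 1.05 and 1.13, TOP1, topoisomerase I, at 0.82 and 1.05, and ABF1 at 0.51 and 0.71. The largest rises with little description on the array were YHR033W at 1.47 and 2.26, TMA10 at 1.57 and 1.96, GDS1 at 0.98 and 1.65, RTS3, next to the biogenesis gene NSR1, at 0.99 and 1.62, and YLR311C at 1.56 and 1.18. TMA10 was saturated in the mutant on 1 of the 2 arrays.

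Among genes with opposite signs, those farthest apart between the arrays included, besides the mitochondrial ones, GIM4, of the prefoldin complex, at 0.52 and -1.31, the Hsp70 gene SSA1 at -1.27 and 0.40, YER053C-A at 0.20 and -1.67, YLR149C-A at 0.78 and -1.08 and BUD19 at 0.11 and -1.54. None of them passed.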
